A study of Homo sapiens with 4 samples.

Results

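The human genome carries many more copies of its ribosomal protein genes than it uses. The genes set out here are ribosomal protein pseudogenes: genes of a GENCODE pseudogene type whose symbol is a ribosomal protein symbol followed by P and a number, and whose raw reads summed over the 4 libraries were at least 40. There were 161 of them among 1144 annotated ribosomal protein pseudogenes and 60279 genes in the count table; another 610 had no read and 373 had 1 to 39 reads. Members were thus selected on their summed reads, so the levels below describe them and are not tested. The members just inside the threshold were RPL18AP7 and RPL12P21 with 40 reads each, and the pseudogenes just outside it included RPL7P46 with 39 reads and RPL35AP26 and RPL32P34 with 38 each.

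The data are TT-seq libraries, in which RNA made during a short pulse is labelled, sheared, biotinylated and pulled down before sequencing. K562 cells, an established human leukaemia line with erythroid features, were left untreated apart from 1 mM 4-thiouridine, given for 15 min in 2 libraries and for 5 min in the other 2. All 4 libraries received the same proportion of Drosophila S2 RNA before enrichment (15 µg beside 150 µg), so human reads per fly read follow the yield of labelled RNA. Libraries held 5051370 and 4726327 human reads and 318710 and 308978 fly reads at 15 min, against 4339981 and 4695405 human reads and 897018 and 803914 fly reads at 5 min. Nothing in the labels says whether libraries of 1 label time came from separate cultures, so p-values measure the spread between libraries only. All 11 K562 marker genes were read, together at 1865 and 1902 CPM (reads scaled to 1000000 human reads per library) at 15 min and 2508 and 2681 CPM at 5 min. Markers of fibroblasts, epithelia, macrophages and lymphocytes summed to 0.792 to 59.6 CPM per list, with CD8A, MS4A1 and KRT5 at 0.

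Ribosomal protein mRNAs are among the most abundant in any growing cell. Processed pseudogenes arise when a mature mRNA is reverse transcribed and the copy is inserted elsewhere in the genome, so they lack the introns and usually the promoter of the parent gene. Many land inside other genes, where transcription of the surrounding gene passes through them. Such copies stay similar in sequence to their parent, and in a counting scheme without multi-mapped reads the youngest copies keep few bases by which a read can be placed.

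Of the members, 151 were processed pseudogenes, 8 were transcribed processed pseudogenes, and 1 each was a transcribed unprocessed pseudogene (RPL32P3) and an unprocessed one (RPS10P16). They came from 61 parents, 105 of them from large subunit genes and 56 from small subunit genes; RPL7L1P3 and RPL7L1P12 descend from RPL7L1, a relative of RPL7 that is not itself a ribosomal protein of the cytosolic set. Their median exonic length was 476 bases, and 142 had a single exon. Over the aligned bases, identity to the parent transcript had a median of 88.8%, with a lowest value of 58.5% and a highest of 100.0%. The longest stretch shared letter for letter with the parent had a median of 42 bases, and 9 members shared 150 bases or more.

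The following pairs show what separates a member from its parent, over 120 bases each, for the 4 members on which much of the account below turns. The letters are GENCODE 29 transcript sequences (GRCh38), read 5′ to 3′, and capitals mark the bases at which member and parent differ. RPS2P5, at chr12:118246084-118246203 on the plus strand, differs from RPS2 at 2 bases over coding positions 1 to 120.
RPS2P5: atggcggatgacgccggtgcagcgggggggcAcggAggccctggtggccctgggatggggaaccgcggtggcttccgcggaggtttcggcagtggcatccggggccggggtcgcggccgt
RPS2: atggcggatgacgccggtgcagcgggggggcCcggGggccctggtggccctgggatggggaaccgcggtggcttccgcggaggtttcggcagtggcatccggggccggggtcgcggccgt
RPS15AP11, at chr1:44780596-44780715 on the minus strand, differs from RPS15A at 5 bases over coding positions 1 to 120.
RPS15AP11: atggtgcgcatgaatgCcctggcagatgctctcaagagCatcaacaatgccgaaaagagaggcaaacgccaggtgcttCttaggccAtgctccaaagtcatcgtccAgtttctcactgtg
RPS15A: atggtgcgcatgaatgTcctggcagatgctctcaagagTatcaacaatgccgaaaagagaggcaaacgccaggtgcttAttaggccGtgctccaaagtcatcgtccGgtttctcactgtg
RPL29P14, at chr5:149545579-149545698 on the minus strand, differs from RPL29 at 6 bases over coding positions 149 to 268.
RPL29P14: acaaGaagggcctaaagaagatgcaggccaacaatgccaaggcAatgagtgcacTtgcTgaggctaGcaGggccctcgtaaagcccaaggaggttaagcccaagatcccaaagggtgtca
RPL29: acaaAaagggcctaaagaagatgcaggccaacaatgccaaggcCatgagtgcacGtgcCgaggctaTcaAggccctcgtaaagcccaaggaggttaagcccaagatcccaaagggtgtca
RPS27AP12, at chr7:157192610-157192729 on the plus strand, differs from RPS27A at 10 bases over coding positions 248 to 367.
RPS27AP12: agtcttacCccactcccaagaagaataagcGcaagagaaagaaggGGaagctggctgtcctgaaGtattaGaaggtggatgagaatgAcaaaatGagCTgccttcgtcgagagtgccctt
RPS27A: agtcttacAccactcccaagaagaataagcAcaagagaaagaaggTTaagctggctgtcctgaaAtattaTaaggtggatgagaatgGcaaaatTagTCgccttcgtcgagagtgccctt

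Most members lay inside other genes. A host gene, meaning a gene of a non-pseudogene type whose span contains the pseudogene, was found for 146 members, and 15 had none. The hosts with most reads were 142 different genes, 141 of them protein coding; TOP3A, RBL1, RERE and KIAA0391 each held 2 members. In 143 cases the pseudogene lay in an intron of that host, and in 3 cases (RPL6P24 in PRPF18, RPL12P1 in KIFC1 and RPS6P16 in PTS) it lay over a host exon. The host was on the opposite strand for 97 members and on the same strand for 49. On the same strand, reads of the pseudogene and of the host's intron at that place cannot be told apart. The strand setting of the counting was not given in the sources used here. Reads from the opposite strand may therefore be included as well.

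The share of annotated ribosomal protein pseudogenes that reached 40 reads, the value that chose the members, is given by the reads of the host as a description, with no test. Among pseudogenes inside a host of 1000 reads or more, 100 of 135 reached it (74.1%), and inside a host of 200 to under 1000 reads 38 of 108 did (35.2%). Inside a host under 200 reads the count was 8 of 283 (2.83%), and without a host it was 15 of 618 (2.43%). In hosts of 1000 reads or more, 33 of 47 same-strand pseudogenes (70.2%) and 67 of 88 opposite-strand ones (76.1%) reached 40 reads.

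**Figure D1:**
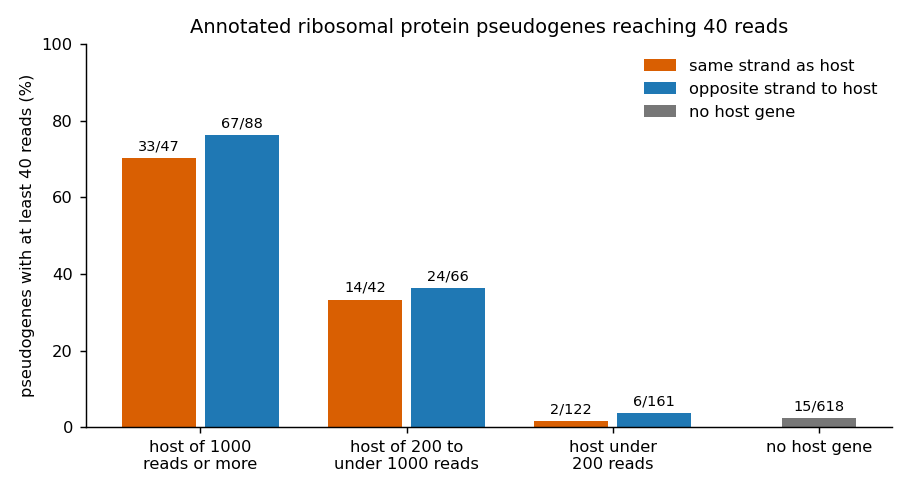
Percentage of annotated ribosomal protein pseudogenes with at least 40 reads, by the reads of the host gene and by strand (orange, same strand; blue, opposite strand; grey, no host gene); bars give the percentage, and the counts stand above the bars. The 2 strands gave 70.2% and 76.1% in hosts of 1000 reads or more, against 2.43% of pseudogenes with no host.

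Levels are compared between genes as reads per exonic kilobase per 1000000 fly reads, called the spike-scaled level here. Averaged over the 4 libraries it ran from 23.0 (RPLP0P6) to 727 (RPL29P14) among the members. Compared with a host of 200 reads or more, the 138 members so placed had a median of 1.03 times the host's reads per exonic kilobase (quartiles 0.719 and 1.37), 1.05 for the 47 on the same strand and 1.02 for the 91 on the opposite strand. These ratios leave out nested copies under 40 reads. In hosts of 1000 reads or more 100 of 135 copies reached 40 reads, and in hosts of 200 to under 1000 reads 38 of 108 did. The threshold therefore raises the ratios, and they do not describe nested copies in general. Compared with the parent, over the reads of all 4 libraries, a member had a median of 7.87% of the parent's reads per exonic kilobase (quartiles 4.51% and 16.4%), and 1 member, RPS29P16 in an intron of the proteasome gene PSMC2, stood above its parent at 166%. Across all 526 annotated nested ribosomal protein pseudogenes, the log2 level had a Pearson correlation with the host's of 0.75 (Spearman 0.72), 0.72 (Spearman 0.65) for the 211 on the same strand and 0.77 (Spearman 0.76) for the 315 on the opposite strand. Over the 146 nested members alone, which the threshold limits in range, it was 0.58 (Spearman 0.66). Across all 1144, the correlation with the parent's level was 0.00 by both measures, and over the 161 members it was -0.17 (Spearman -0.18). These are descriptions over genes that share the same libraries and, with the host, the same stretch of the genome.

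**Figure D2:**
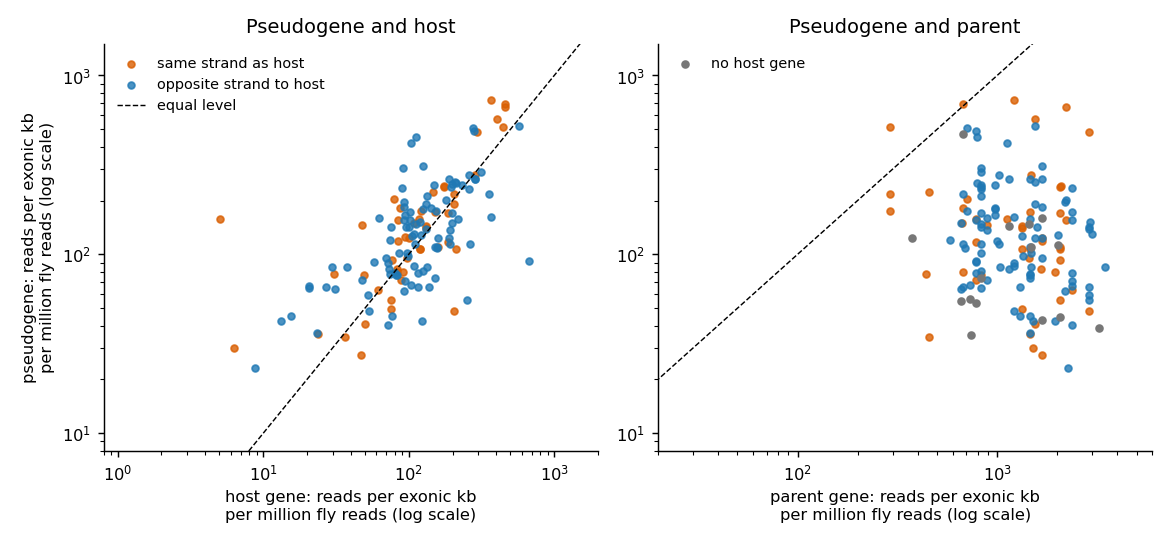
Spike-scaled level of each member (reads per exonic kilobase per 1000000 fly reads, mean of 4 libraries, log scale) against that of its host gene (left; hosts without a read are not drawn) and of its parent gene (right), with colours for the strand relative to the host and a dashed line at equal level. Members scatter about the line for hosts, where the median ratio was 1.03 for hosts of 200 reads or more, and lie below it for parents except for RPS29P16 and, by a few percent on this mean of scaled levels, RPS15AP10. Only pseudogenes that reached 40 reads are drawn, which raises the ratio to the host.

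The members with the highest levels lay in introns of well-read genes. RPL29P14, a copy of the large subunit gene RPL29 inside the casein kinase gene CSNK1A1 on the same strand, had spike-scaled levels of 1166 and 1361 at 15 min, against 188 and 195 at 5 min. Its host stood at 557 and 547 at 15 min and 175 and 202 at 5 min, and RPL29 at 1703 and 1720 against 646 and 797. The 15 min libraries lay above the 5 min libraries for all of them, on a scale on which 98.4% of all genes tested rose. The pseudogene was above its host in 3 of the 4 libraries and just under it in replicate 2 of the 5 min libraries.

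RPS15AP10, a copy of the small subunit gene RPS15A inside GPBP1L1, had levels of 1257 and 1084 at 15 min, against 196 and 221 at 5 min. RPS16P5, inside the fatty acid elongase gene ELOVL5, had 1219 and 1041 at 15 min, against 149 and 246 at 5 min. RPS27AP12, a copy of the gene for a ubiquitin and ribosomal protein fusion, lay inside the ubiquitin ligase gene UBE3C and had 965 and 905 at 15 min, against 209 and 214 at 5 min. In each, the groups did not overlap on this scale. With fly totals as library sizes, 98.4% of all genes tested rose (edgeR adjusted p under 0.05), so this does not set these members apart. The rest of the 12 highest levels belonged to RPS27AP10 in the formin gene DIAPH1, RPS29P16 in PSMC2, RPL36AP15, RPL22P3 in SZRD1, RPL12P49 in TXLNG, RPL39P26 in FAR1 and RPL10P12 in RAP1B, and to RPS15AP11, which alone of the 12 had no host.

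The member with the most reads was RPL32P3, a spliced, unprocessed pseudogene of 4504 exonic bases at chr3:129382922-129399655 on the minus strand, with 269 and 267 reads at 15 min and 139 and 141 at 5 min. It has no host, and its nearest gene of 100 reads or more, MBD4, ended 31289 bases away. Per length it was not among the highest, at spike-scaled levels of 187 and 192 at 15 min, against 34.4 and 38.9 at 5 min.

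The first comparison asks how much labelled RNA of each gene built up between 5 and 15 min of labelling. All members together gave 21.1 and 18.6 reads per 1000 fly reads at 15 min, against 4.46 and 5.05 at 5 min, a ratio of 4.18 (19.9 ± 1.76 and 4.75 ± 0.416, SD, n = 2 each). The same ratio was 2.42 for their parents, 2.72 for their hosts and 4.21 for the 1585 other pseudogenes with at least 40 reads. The exact two-sided permutation test gave p = 0.333 for each of these sums, the smallest that 2 against 2 libraries allow. In bulk RNA, fewer cells making a transcript and less of it per cell cannot be told apart.

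Gene by gene, edgeR's quasi-likelihood test with library sizes set to the fly totals covered 156 of the 161 members among 17322 genes that passed the filter on low counts; RPL10P3, RPL13P12, RPL15P3, RPS15AP1 and RPL18AP7 did not pass it. Of the 156, 151 rose and 0 fell (adjusted p under 0.05, Benjamini-Hochberg), beside 98.4% of all genes tested that rose and 0.0115% that fell. The median log2 fold change of the tested members was 2.14, beside 1.68 for all genes tested, 1.33 for the 61 parents, 1.49 for the 139 tested hosts and 2.03 for the other pseudogenes. The 5 that did not pass were RPLP0P6, RPS2P5, RPL14P1, RPS28P7 and RPS15AP6. Across members, the accumulation log2 fold change had a correlation of -0.03 with that of the host (Spearman -0.07, 140 members) and of -0.01 with that of the parent (Spearman -0.06, 156 members), a description over genes of the same libraries. RPL9P9 did pass, at 1.99-fold, but not without replicate 1 of the 15 min libraries, where its log2 fold change was 0.43 (edgeR).

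The second comparison asks whether a gene took a larger or a smaller share of the labelled human RNA at 15 min than at 5 min, with TMM scaling of the human reads, so the rise common to all genes is removed. Of the 156 tested members, 41 rose in share and 7 fell, beside 16.0% of all genes that rose and 22.1% that fell. The median log2 fold change was 0.48, beside 0.02 for all genes, -0.33 for the parents (7 rose and 42 fell of 61), -0.17 for the hosts (8 rose and 62 fell of 139) and 0.37 for the other pseudogenes (409 rose and 28 fell of 1569). Of the 79 genes for cytosolic ribosomal proteins, parents included, 7 rose and 59 fell. Both 15 min libraries lay above both 5 min libraries, in CPM, for 111 of the 156 and below them for 9, beside 43.1% and 25.7% of all genes. The count of 41, or 26.3% of the members tested, rested on the libraries. Without replicate 1 of the 15 min libraries 13 members rose (8.33%, beside 9.96% of all genes in the same fit), and without replicate 2 of them 37 did (23.0%, beside 2000 of 18133 genes). Without replicates 1 and 2 of the 5 min libraries the counts were 26 (16.1%, beside 11.6%) and 17 (10.6%, beside 9.37%). The share of members that rose was thus near that of all genes without replicate 1 of the 15 min or replicate 2 of the 5 min libraries. The count of 7 became 3 to 5 when a library was left out. DESeq2 gave an adjusted p for 60 of the 156. With it 6 of the 156 rose (3.85%, beside 5.33% of all genes) and 1 fell (0.641%, beside 13.7%). The larger proportion of rises among members was thus not seen with DESeq2. Members without an adjusted p could not be called there, and 32 of the 48 members called with edgeR had one. The DESeq2 counts therefore cannot decide whether the proportion was larger.

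**Figure D3:**
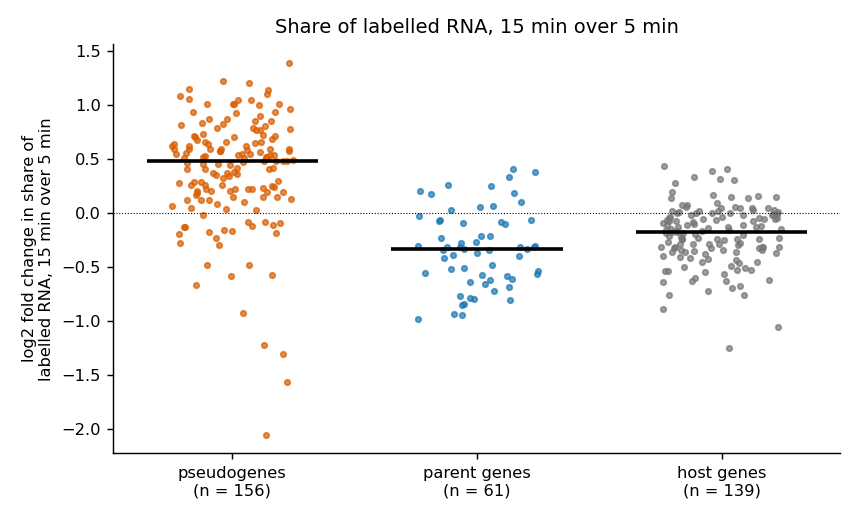
Log2 fold change in share of the labelled human RNA, 15 min over 5 min, for the 156 tested pseudogenes, their 61 parent genes and their 139 tested host genes; each point is a gene and each bar a median. The medians were 0.48, -0.33 and -0.17.

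RPL7AP65 gained the most share. This copy of the large subunit gene RPL7A lies inside the topoisomerase gene TOP3A on the opposite strand, at chr17:18311904-18312651 on the plus strand. It had 80 and 65 reads at 15 min, against 23 and 24 at 5 min. Its share rose by a log2 fold change of 1.39 ± 0.24 (SE; edgeR adjusted p = 7.86e-08), while RPL7A had -0.93 and TOP3A -0.05.

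RPL29P14 had 159 and 180 reads at 15 min, against 72 and 67 at 5 min, and its share rose by 1.06 ± 0.15 (SE; edgeR adjusted p = 1.21e-10). Its parent RPL29 stood at -0.41 and its host CSNK1A1 at -0.11. RPS16P5, with 157 and 130 reads at 15 min and 54 and 80 at 5 min, rose by 0.87 ± 0.16 (SE; edgeR adjusted p = 6.83e-07), and RPS15AP10, with 153 and 128 reads at 15 min and 67 and 68 at 5 min, by 0.83 ± 0.16 (SE; edgeR adjusted p = 2.74e-06). RPL32P3 rose by 0.71 ± 0.12 (SE; edgeR adjusted p = 2.64e-08), while its parent RPL32 stood at -0.07. These 5 and RPS27AP10 and RPL21P65 were called without each of the 4 libraries in turn, and no other of the 41 was.

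The other large gains were in genes with few reads. RPL26P27 in SLC25A16 had 46 and 31 reads at 15 min, against 12 and 16 at 5 min, for a log2 fold change of 1.22, and it was not called without replicate 1 of the 15 min libraries (0.96). RPL21P65 in QRSL1 had 39 and 42 reads at 15 min, against 14 and 16 at 5 min, for 1.20. RPL12P11 in the chromatin remodeller gene CHD6 had 41 and 37 reads at 15 min, against 17 and 13 at 5 min, for 1.14, and it was not called without replicate 2 of the 5 min libraries (0.92). RPL21P10 in ALKBH1 (1.14) lost the call without 3 of the 4 libraries and RPL32P26 in PPM1H (1.05) without 2 of them. For all of them the 15 min libraries lay above the 5 min libraries, but the rule that named them required this.

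RPS2P5 stood apart among the losses. It lies inside the kinase gene TAOK3 on the opposite strand, is 98.7% identical to its parent RPS2 and shares a run of 224 bases with it, so reads of the pseudogene and of the parent may not be separable. It had 80 and 98 reads at 15 min, against 200 and 249 at 5 min. Its spike-scaled level was 286 and 361 at 15 min, against 254 and 352 at 5 min, so the groups overlap on that scale. RPS2 stood at 2221 and 2072 at 15 min and 1104 and 1330 at 5 min, and TAOK3 at 194 and 175 against 58.4 and 74.5. The share of RPS2P5 fell by 1.56 on the log2 scale (± 0.14, SE; edgeR adjusted p = 1.09e-28), that of RPS2 by 0.84, and TAOK3 stood at -0.19. The call held without each library in turn and with DESeq2 (adjusted p = 2.93e-11).

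Another 5 losses were of smaller counts. RPLP0P6, a copy of the gene for the stalk protein RPLP0 with 98.8% identity, had 7 and 5 reads at 15 min, against 29 and 14 at 5 min, and its share fell by 2.05 (edgeR adjusted p = 3.93e-05), or by 1.40 and no longer called without replicate 1 of the 5 min libraries. RPL14P1 (98.8% identity, no host) had 9 and 7 reads at 15 min, against 16 and 18 at 5 min, and fell by 1.30; the call was lost whichever library was left out. RPS28P7 (100.0% identity) had 12 and 6 reads at 15 min, against 15 and 21 at 5 min, and fell by 1.22; the call was lost without replicate 2 of either label time (-0.86 at 15 min and -1.003 at 5 min). RPL9P9 (99.8% identity, no host) had 58 and 29 reads at 15 min, against 54 and 64 at 5 min, and fell by 0.67; the call was lost without replicate 2 of the 15 min libraries (-0.31) and of the 5 min libraries (-0.59). RPS15AP6, inside the translation factor gene EIF4G3, had 10 and 14 reads at 15 min, against 22 and 17 at 5 min, and fell by 0.92; that call too was lost whichever library was left out. At 81.2% identity it was the exception among these, and its host fell by 0.53.

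RPS15AP11 fell in share while it rose in accumulation. It has no host. Its spike-scaled level was 652 and 630 at 15 min, against 281 and 323 at 5 min, 2.13-fold higher at 15 min (edgeR adjusted p = 6.21e-07). Its share fell by 0.58 ± 0.17 (SE; edgeR adjusted p = 0.00254), while its parent RPS15A, 95.9% identical, rose in share by 0.38. That call held without each library in turn, but the DESeq2 adjusted p was 0.0890. In the production rates the authors deposited, a score with no scale given, RPS15AP11 had 0.158, above 98.2% of genes with a rate, and RPS15A had 0.112.

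**Figure D4:**
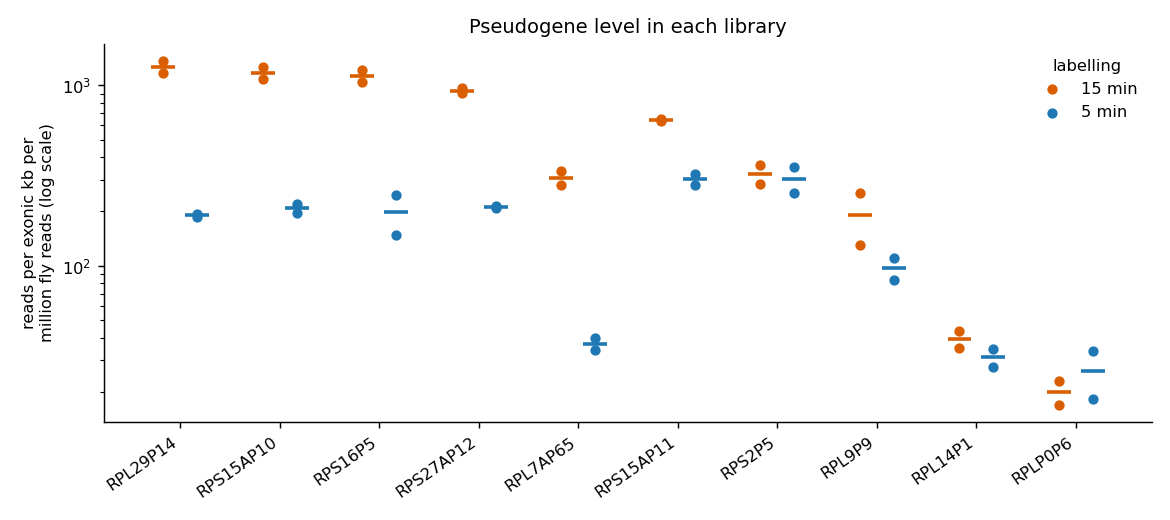
Spike-scaled level (reads per exonic kilobase per 1000000 fly reads, log scale) of 10 members in each library, 15 min in orange left of 5 min in blue; points are libraries and bars their mean. RPL29P14, RPS15AP10, RPS16P5, RPS27AP12, RPL7AP65 and RPS15AP11 are higher in both 15 min libraries, while the label times overlap for RPS2P5 and RPLP0P6. On this scale 98.4% of all genes tested rose.

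Most of the members that lost share were close copies of their parent; the class used here was chosen after these losses were seen and is a description. An identity of 98% or more was found for 10 members, and 8 of these were tested: 5 fell in share and 0 rose, with a median log2 fold change of -0.94. Among the 56 tested members of 90 to 98% identity, 18 rose and 1 fell (median 0.52), and among the 92 under 90%, 23 rose and 1 fell (median 0.42). The 3 tested members of 98% or more that did not fall, RPS7P11 (1.01), RPL41P2 (0.71) and RPL21P28 (0.53), all lay inside hosts of 200 reads or more, on the opposite strand, and none of these values passed the test. Of the 4 tested in that identity class with no host or a host under 200 reads, 4 fell. Whether reads of the parents entered these counts was not tested.

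**Figure D5:**
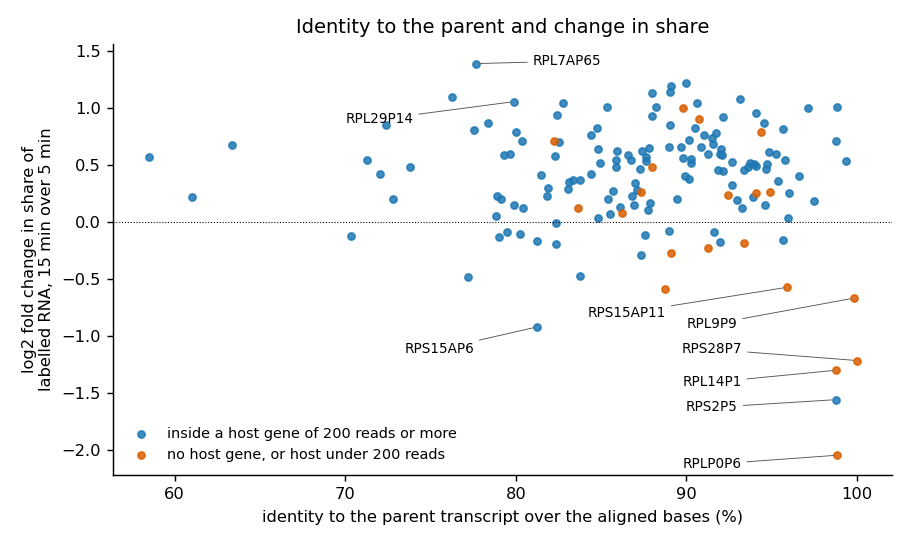
Log2 fold change in share of labelled RNA, 15 min over 5 min, against identity to the parent transcript (% of aligned bases) for the 156 tested members, in orange those with no host gene or a host under 200 reads. The 5 lowest values among members of 98% identity or more run from -2.05 to -0.67, and RPS15AP6 at 81.2% is the only other value under -0.60.

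The third comparison sets each member against its parent within each library, with limma on the log2 ratio of reads. Of the 156 tested members, 69 rose relative to the parent and 4 fell, with a median log2 fold change of 0.76. Among all 776 pseudogene and parent pairs of any family, 44.5% rose and 1.16% fell, so the count of 69 of 156 was near that background. The count of 69 was 40 and 45 without replicates 1 and 2 of the 15 min libraries (25.6% and 28.8% of members, beside 25.6% and 30.7% of all pairs) and 37 without replicate 2 of the 5 min libraries (23.7%, beside 24.5%). The largest gains were those of RPL7A copies: RPL7AP65 at 2.30 ± 0.25, RPL7AP31 at 2.02 ± 0.49, RPL7AP2 at 1.95 ± 0.37 and RPL7AP10 at 1.67 ± 0.24 (SE), followed by RPL35P3 at 1.65 ± 0.29. RPL7A itself accumulated 1.66-fold and RPL35 2.04-fold, against 3.20-fold for the median gene. RPL7AP31 lost the call without replicate 2 of the 15 min libraries (1.90); the other 4 kept it without each library. The 4 that fell relative to the parent were RPLP0P6 (-1.60), RPS15AP6 (-1.29), RPS15AP11 (-0.95) and RPS2P5 (-0.72); of these RPS15AP11 alone was called without each library in turn. RPS2P5 lost its call without replicate 1 of the 15 min libraries (-0.50) and without replicate 2 of the 5 min libraries (-0.61). RPLP0P6 lost it without replicate 1 of the 5 min libraries (-1.05), and RPS15AP6 without replicate 1 of the 15 min libraries (-0.98) or of the 5 min libraries (-1.14).

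The fourth comparison sets each nested member against the gene around it in the same way. Of 140 tested, 50 rose relative to the host and 1 fell, with a median log2 fold change of 0.65; among all 1357 pairs of a nested pseudogene and a host, 35.3% rose and 0.811% fell, again near the members' count. The calls of members and of all pairs alike depended on the 15 min libraries: without replicate 1, 2 members (1.43%) and 2.43% of all pairs rose, and without replicate 2, 8 members (5.71%) and 6.63% of all pairs did, while the members' median stayed at 0.64 and 0.74. On the same strand as the host, 16 of 47 rose and 0 fell (median 0.67), and on the opposite strand 34 of 93 rose and 1 fell (median 0.61). RPS7P11 in NSF had the largest gain at 1.71 ± 0.60 (SE), but with 20 and 11 reads at 15 min and 10 and 3 at 5 min, and it kept its call in 1 of the 4 fits that left out a library. RPS27AP10 in DIAPH1 rose by 1.61 ± 0.26, RPL26P27 in SLC25A16 by 1.61 ± 0.33, RPL5P4 in ZMYM4 by 1.57 ± 0.23 and RPL7P25 in C6orf106 by 1.49 ± 0.28 (SE), and each lost the call without 1 of the 15 min libraries. RPL29P14 in CSNK1A1, at 1.16 ± 0.19 (SE; limma adjusted p = 0.000288), and RPS2P5 in TAOK3, which fell by 1.37 ± 0.19 (SE; limma adjusted p = 8.47e-05), were called without each library in turn.

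In 2 of these pairs the host had changed more in share than the member. RPL5P4 had spike-scaled levels of 237 and 223 at 15 min, against 42.8 and 59.0 at 5 min, and its share rose by 0.52. Its host ZMYM4 had 156 and 160 at 15 min, against 95.9 and 111 at 5 min, and its share stood at -1.05. RPL7P25 had 287 and 233 at 15 min, against 38.7 and 74.2 at 5 min, and its share rose by 0.56, while its host stood at -0.89. In both, the pseudogene lay below its host at 5 min and, for RPL5P4, above it at 15 min. Neither share gain held without each library: that of RPL5P4 was lost whichever library was left out and that of RPL7P25 without 3 of them.

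Families differed in how many copies were read. RPL23A had the most members, 15 of 91 annotated copies, followed by RPL7 with 10 of 61; RPSA had 7 of 74, RPL7A 7 of 37, RPS15A 7 of 23 and RPS2 7 of 20. The counts below stand beside 16.0% of all genes that rose and 22.1% that fell in share. Relative to the parent, 44.5% of all pairs of any family rose. The copies of a family share the reads of 1 parent, so their ratios to it are not independent of each other. The 15 RPL23A copies had a median log2 fold change in share of 0.20, and 1 rose and 0 fell. Of the 10 RPL7 copies 2 rose and 0 fell (median 0.37), and 8 of the 10 rose relative to RPL7, which fell in share by 0.72. Of the 7 RPSA copies, descended from the gene for the laminin receptor and ribosomal protein SA, 4 rose in share and 0 fell (median 0.54). Of the 7 RPS2 copies 2 rose and 1, RPS2P5, fell, while 6 rose relative to RPS2. Of 6 tested RPS15A copies 1 rose in share, RPS15AP6 and RPS15AP11 fell, and 0 rose relative to RPS15A, whose own share rose by 0.38. In share, 1 of 7 RPL12 copies, 2 of 7 RPL21 copies, 3 of 5 RPS27A copies and 0 of 5 RPS12 copies rose, and 0 of any of them fell. Among these 10 families the median change relative to the parent was highest for RPL7A copies at 1.67 and lowest for RPS15A copies at -0.20, and whether families differ was not tested.

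Members without a host numbered 15. Among the 13 tested, 1 rose in share (RPL32P3, 7.69%) and 3 fell (RPL14P1, RPL9P9 and RPS15AP11, 23.1%), with a median of 0.08. Of all genes tested, 16.0% rose and 22.1% fell (median 0.02), so these 13 were near that background. Among the 48 on the same strand as a host 18 rose (37.5%) and 1 fell (2.08%, median 0.52). Among the 95 on the opposite strand 22 rose (23.2%) and 3 fell (3.16%, median 0.46). RPL23AP53 and RPS18P9 overlapped the genes ZNF596 and KATNA1 on the opposite strand without lying wholly inside them, and RPL17P50 lay 622 bases past the end of P4HA1. The authors' deposited table of production rates has a value for 11 of these 15 and for 0 of the 146 nested members, while 137 of the hosts have one. After RPS15AP11, the highest were RPS25P9 at 0.0352, RPL34P1 at 0.0349 and RPS18P9 at 0.0320, against 0.307, 0.273 and 0.698 for their parents in the authors' deposited table. RPL32P3 had 0.00741 and RPL15P3 had 0, against a median of 0.0114 over 11777 genes.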

How the data were processed

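For 4 libraries the authors deposited raw read counts of human and of fly genes, not normalized, and 1 production rate per gene, used as a score because no scale is given per the file headers. The submitters' processing notes name bcl2fastq 2.17.1.14, STAR 2.7, featureCounts (Subread 2.0.1), edgeR, hg38 and dm6. The handling of multi-mapped reads, strand and counting feature was not given in the sources used here. Counts for copies close to their parent or inside a host are therefore uncertain. GENCODE 29 (GRCh38) gave symbols, types, spans and exons for 56590 of 60279 identifiers. The parent is the symbol without its final P and number; of several hosts the one with most reads was taken.

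Accumulation used edgeR 4.0.16 (R 4.3.3; filterByExpr, minimum count 10, robust quasi-likelihood fit, label time as the only term) with fly read totals as library sizes; share used TMM factors on the human counts. Ratios to parent and host used limma 3.58.1 (trend, robust) on log2 values with 0.5 reads added, over every such pair in the table. P-values were two-sided, adjusted by Benjamini-Hochberg at 0.05 over all features tested. DESeq2 1.42.0 was an alternative. The fits were tested on simulated counts. Identity was computed with Biopython 1.88 alignments of transcripts. Over all members together, the 15 min libraries differed by more than counting noise (chi-square per degree of freedom 1.92) and those of 5 min by 1.13. The 15 min value includes RPL10P3 (93 and 0 reads), RPL15P3 (43 and 1), RPL13P12 (36 and 4) and RPS13P2 (56 and 15). It was not computed without them, so it does not describe the members in general. No molecular identifiers are given, so this compares reads, not molecules. Named members were the 12 highest per length, the 12 with most reads, up to 8 largest gains and losses of share with label times not overlapping, the 5 largest and smallest changes in each ratio, and those at the threshold; RPL21P28, RPL41P2 and members without a host were added after their values were seen. A few results on single genes are not reported here. Members and lists were chosen with earlier results of these data known.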

Additional observations from a re-analysis of the deposited data

How the results depend on the processing

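With DESeq2, 60 of the 156 tested members received an adjusted p in the share comparison. Of the 156, 6 rose (3.85%, beside 5.33% of all genes) and 1 fell (0.641%, beside 13.7%). Over all genes its counts were 923 and 2370, beside 2773 and 3829 with edgeR. With total human counts and no TMM factor, 62 members rose in share; the median of all genes was then 0.13 and the all-gene counts were 4233 and 2805, so 60.1% of calls were rises, beside 42.0%. With only the 10 members that overlap no other gene, 7 rose in accumulation, 0 rose and 2 fell in share, and the median log2 fold change in share was -0.052. How many of the 10 passed the filter on low counts is not given here. Of all genes tested, 98.4% rose in accumulation, and 16.0% rose and 22.1% fell in share. A threshold of 100 reads left 82 members, and one of 20 gave 226. Leaving out 1 library gave 13 to 37 members rising (8.33 to 23.0%, beside 9.37 to 11.6% of all genes) and 3 to 5 falling in share, 145 to 154 rising in accumulation (92.9 to 95.7%, beside 91.6 to 97.0%), 37 to 60 rising (23.7 to 38.5%, beside 24.5 to 36.3% of all pairs) and 2 to 4 falling relative to the parent, and 2 to 59 rising relative to the host (1.43 to 42.1%, beside 2.43 to 43.8%); a lone remaining library is there taken to vary as the other label time does. Some values that were not called changed sign when a library was left out: the accumulation of RPS2P5 ran from -0.127 to 0.35, that of RPLP0P6 from -0.75 to 0.13 and that of RPS28P7 from -0.13 to 0.82, and the parent ratio of RPL36AP15 from -0.0047 to 0.44 and that of RPL9P9 from -0.89 to 0.064; the cause was not tested. With replicate number as a block, 151 members rose in accumulation, 39 rose and 7 fell in share, 71 rose and 4 fell relative to the parent, and 59 rose and 1 fell relative to the host, where all pairs gave 560 rises, beside 479 without the block. The labels do not say what the numbers mark; the deviations of same-numbered libraries correlated at 0.05 over all tested genes, and 2 pairs are too few to tell whether the numbers pair the libraries. Of the values of named members that passed the test, 766 kept direction and call under the alternatives and 165 kept the direction but lost the call. These counts pool all comparisons and settings. When a library was left out, calls in share and relative to the host were lost far more often than calls in accumulation. Most members had few reads (median 100 over 4 libraries), which limits single calls.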

Other observations

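A few members owed most of their reads to 1 library. RPL10P3, inside ASTN2, had 93 and 0 reads at 15 min, against 0 and 2 at 5 min. RPL15P3, with no host, had 43 and 1 reads at 15 min, against 0 and 1 at 5 min. RPL13P12 had 36 and 4 reads at 15 min, against 6 and 6 at 5 min. RPS13P2, inside ZYG11B, had 56 and 15 reads at 15 min, against 15 and 15 at 5 min. All 4 were close to their parents, with identities of 97.1% for RPL10P3 and RPS13P2, 98.4% for RPL13P12 and 99.5% for RPL15P3. They were picked because replicate 1 of the 15 min label had at least 3 times the reads of its replicate. No other library was searched in this way, so the choice itself set which library was high in all 4. The ribosomal protein pseudogenes under the threshold showed the same library highest, with 1068 and 774 reads in all at 15 min, against 673 and 716 at 5 min. Without replicate 1 of the 15 min label, RPL10P3, RPL15P3 and RPL13P12 would not have reached 40 reads, and none of those 3 entered the tests.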
